A study of Mus musculus with 12 samples.

Results

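The 10 genes described here are known to respond to mechanical stretch and hypertrophic growth in heart muscle, and were Ankrd1, Ankrd2, Ankrd23, Xirp1, Xirp2, Acta1, Actc1, Rcan1, Enah and Uchl1. They were chosen by gene symbol, and all 10 were among the 51826 entries of the deposited gene count table, of which 29861 had a count in at least 1 library. The libraries came from atria and ventricles of 6 female FvB mice aged 10 weeks, so that each of 4 groups held 3 mice. CUG960 +dox mice (V119, V120 and V123) were homozygous for TREDT960I, a tetracycline-responsive transgene with 960 interrupted CTG repeats in the last exons of human DMPK, and hemizygous for MHCrtTA, in which the cardiomyocyte promoter of Myh6 drives the reverse tetracycline transactivator. MHCrtTA +dox controls (V327, V333 and V334) were hemizygous for MHCrtTA without the repeat transgene. Both groups received dox from postnatal day 1, so dox and the transactivator were shared, while the repeats and the rest of the transgene cannot be told apart. The genotypes came from separate crosses, and the transactivator limits transgene induction to cardiomyocytes. Each library held 116127966 to 160676189 counts.

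A cardiomyocyte senses load through the Z-disc and the spring-like part of titin that is anchored there, and through the intercalated disc, where myofibrils of neighboring cells are joined. Under pressure or volume overload the cell adds sarcomeres, and genes of the fetal heart are transcribed again. Ankyrin repeat proteins that bind titin, Xin proteins that bind actin at the intercalated disc, the skeletal muscle actin gene, and feedback regulators of the phosphatase calcineurin are commonly followed in this setting. Levels below are counts scaled to library size (CPM) with normalization by the trimmed mean of M values (TMM), and a gene was called when the edgeR adjusted P value was under 0.05 and the fold change was at least 1.5.

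The 10 genes did not move as a group toward higher levels in CUG960 +dox hearts. In atria 5 fell (Ankrd23, Xirp1, Xirp2, Rcan1 and Enah) and 0 rose. In ventricles 3 rose (Ankrd1, Ankrd2 and Uchl1) and Ankrd23 fell. Ankrd23 was the single gene called in both tissues, and it was lower in CUG960 +dox mice in each. Among all genes tested, 5.49% were called in atria, 3.37% higher and 2.12% lower, and 4.75% were called in ventricles, 3% higher and 1.76% lower. All 10 genes passed the filter on low counts in every comparison.

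**Figure D1:**
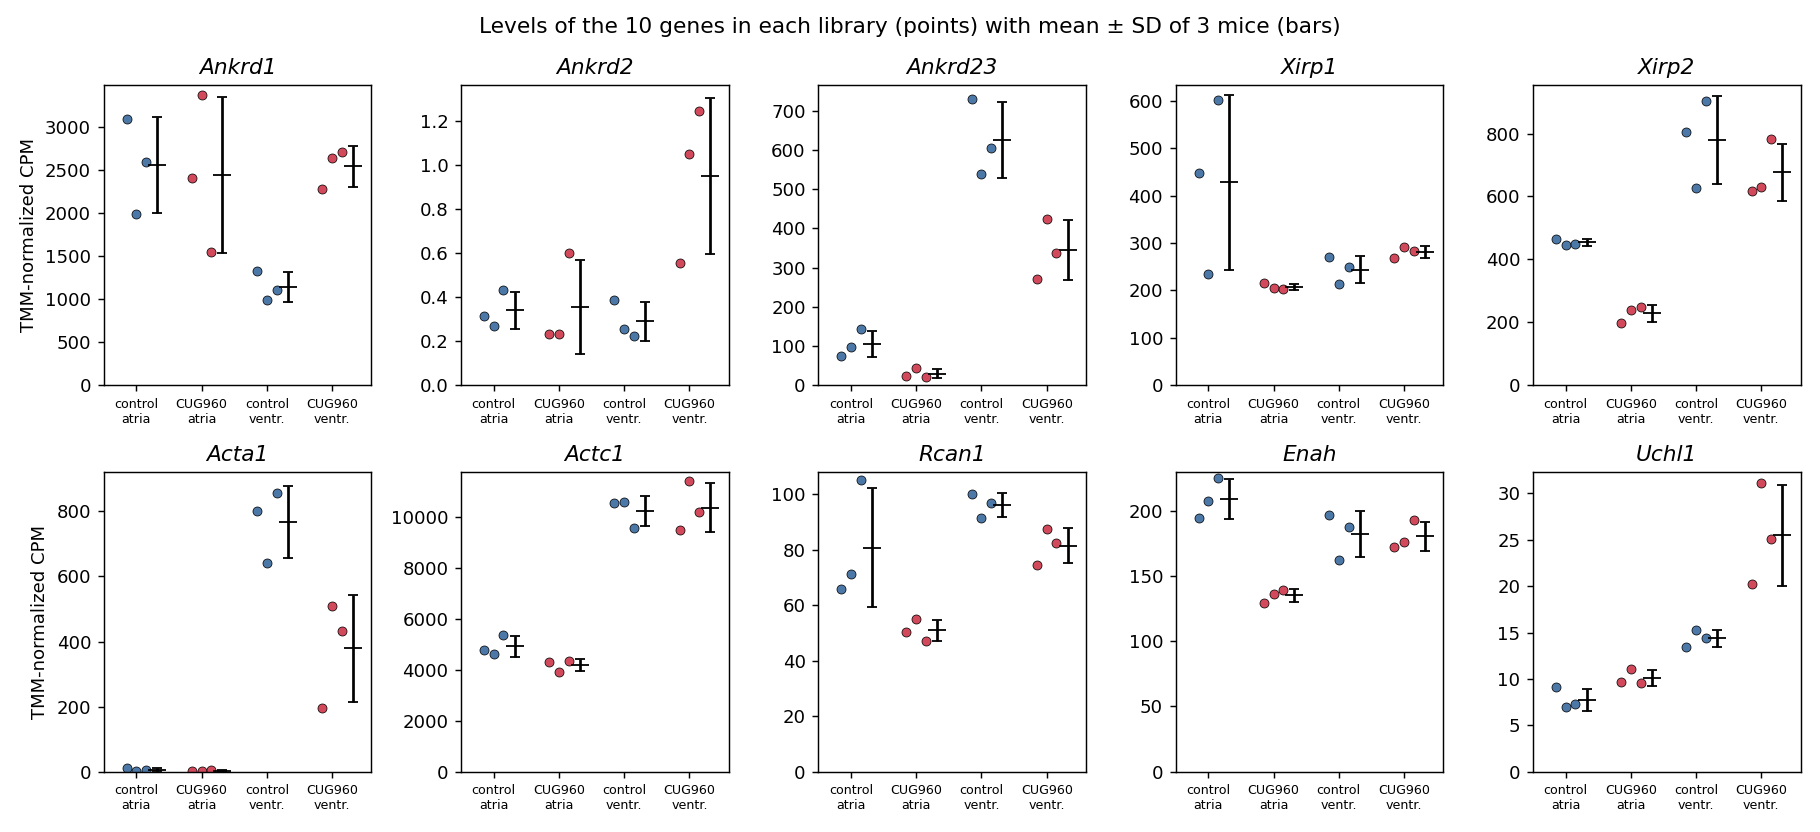
Levels of the 10 genes in TMM-normalized CPM (vertical axes, each starting at 0) by tissue and genotype, with 1 point per library and bars for mean ± SD of 3 mice. CUG960 +dox ventricles stand above control ventricles for Ankrd1, Ankrd2 and Uchl1 and below them for Ankrd23, Acta1 and Rcan1, and CUG960 +dox atria stand below control atria for Ankrd23, Xirp1, Xirp2, Actc1, Rcan1 and Enah and above them for Uchl1.

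The labelled tissues carried their markers. Summed levels of 7 atrial markers (most abundant Nppa) were 26560 to 29160 CPM in control atria and 21910 to 23960 CPM in CUG960 +dox atria, which did not overlap, and the highest ventricle reached 1.61% of the lowest atrium. Summed levels of 6 ventricular markers (most abundant Myl2) were 14280 to 17900 CPM in ventricles, and the highest atrium reached 0.705% of the lowest ventricle. The 8 cardiomyocyte markers were present in every library, with sums of 37450 to 38470 CPM in control atria, 40070 to 41640 CPM in CUG960 +dox atria, 50190 to 53940 CPM in control ventricles and 53140 to 55910 CPM in CUG960 +dox ventricles. In the atria where 5 of the 10 genes fell, summed atrial markers were thus lower and summed cardiomyocyte markers higher than in controls. The cardiomyocyte sum rose through its most abundant gene, Myh6, from 25510 ± 380 to 29800 ± 550 CPM, and through Pln (log2 fold change 0.52). Tnnt2, Tnni3, Actn2, Ryr2, Ttn and Myl3 had negative log2 fold changes there, from −0.55 to −0.10. None of the 8 cardiomyocyte markers was called in atria, and 1, Ryr2, was called lower in ventricles (log2 fold change −0.67, adjusted P value 0.0148). Of the 6 ventricular markers, Kcnv2 was called in ventricles, and it was lower (−2.23, adjusted P value 4.2e-05). Of 5 of them tested in atria, Lbh was called higher (0.64) and Hey2 lower (−0.67). The part of these lists in the results was not tested. These were whole tissues, so fewer cells of a type and less RNA per cell cannot be told apart in any level given here.

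A single library, the control atria of V334, stood apart from the other atria. Fos, an immediate-early transcription factor gene induced within minutes of a stimulus, was at 112.5 CPM there and at 1.56 to 2.92 CPM in the other 5 atria. Jun was at 411.3 CPM against 35.9 to 53.5 CPM, and Cyr61, a matrix protein gene induced by stretch and by serum, was at 410.4 CPM against 19.8 to 69.1 CPM. Its summed leukocyte markers were 503.8 CPM, of which Lyz2 made 395.2 CPM, against 201.4 to 264.3 CPM in the other atria. These genes were picked after their values were seen, and ventricles of the same mouse showed no gap of this size. V334 was the highest of 6 ventricles for Fos (1.85 CPM against 0.480 to 1.42 CPM) and leukocyte markers (110.7 CPM against 84.5 to 104.8 CPM) but not for Jun (58.5 CPM against up to 76.1 CPM in V119) or Cyr61 (46.2 CPM against up to 60.5 CPM in V327). Their part in the atrial results was not tested, and the atrial calls are given below with and without V334.

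Among ventricles, the CUG960 +dox library of V123 stood apart in the atrial markers Myl7, Sln and Myl4. Myl7, the atrial regulatory light chain gene, was at 55.9 CPM there, at 0.192 and 0.304 CPM in V119 and V120, and at 4.98 to 19.3 CPM in controls, of which V334 was the highest. Sln and Myl4 were likewise highest in V123, at 18.6 and 86.3 CPM, against 0.213 to 0.341 and 4.36 to 6.13 CPM in the other CUG960 +dox ventricles. The other atrial markers did not set V123 apart. Nppa was at 151.5 CPM there and 224.4 CPM in V120, and Bmp10 at 0.208 CPM and 0.275 CPM. Tbx5 was at 33.0 CPM in V123, within the 31.2 to 38.8 CPM of the ventricles, and Nr2f2 at 7.68 CPM, within 6.02 to 8.52 CPM. Without V123 the ventricular calls of Ankrd1 (log2 fold change 1.11, adjusted P value 0.00276), Ankrd23 (−0.85, 0.0388) and Uchl1 (0.84, 0.0238) held, and that of Ankrd2 was lost. The part of atrial RNA in the ventricular results was not tested.

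The muscle ankyrin repeat proteins encoded by Ankrd1 (chr19:36111961-36120099), Ankrd2 (chr19:42036000-42045110) and Ankrd23 (chr1:36530188-36536883) bind the spring-like part of titin. They also enter the nucleus, where Ankrd1 is known as a cofactor of transcription. RefSeq promoters of all 3 (GRCm38.p6, 250 bases before to 50 after the start, read 5′ to 3′ on the gene strand) are shown because these related genes moved in opposite directions in ventricles. Capitals mark the M-CAT motif CATTCC, the element read by TEAD factors, on either strand (GGAATG on the minus strand), and the TATA box TATAAA.
Ankrd1 promoter, chr19:36119795-36120094, minus strand: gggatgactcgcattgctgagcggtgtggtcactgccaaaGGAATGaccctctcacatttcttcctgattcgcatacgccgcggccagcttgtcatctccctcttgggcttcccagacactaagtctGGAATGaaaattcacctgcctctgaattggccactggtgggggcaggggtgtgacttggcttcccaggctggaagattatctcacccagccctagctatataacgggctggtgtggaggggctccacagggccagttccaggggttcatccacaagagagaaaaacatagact
Ankrd2 promoter, chr19:42035777-42036076, plus strand: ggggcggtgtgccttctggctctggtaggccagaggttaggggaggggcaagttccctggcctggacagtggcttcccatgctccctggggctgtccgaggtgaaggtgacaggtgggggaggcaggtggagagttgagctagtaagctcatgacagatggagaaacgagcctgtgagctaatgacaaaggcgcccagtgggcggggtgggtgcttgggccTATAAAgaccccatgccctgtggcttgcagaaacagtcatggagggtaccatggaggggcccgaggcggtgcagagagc
Ankrd23 promoter, chr1:36535690-36535989, minus strand: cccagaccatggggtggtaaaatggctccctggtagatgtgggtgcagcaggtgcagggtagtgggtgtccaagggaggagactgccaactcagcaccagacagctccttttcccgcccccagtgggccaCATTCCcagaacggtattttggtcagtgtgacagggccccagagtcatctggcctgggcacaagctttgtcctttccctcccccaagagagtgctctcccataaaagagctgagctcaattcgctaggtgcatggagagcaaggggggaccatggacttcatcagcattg
The M-CAT letters stood at −210 to −205 and at −123 to −118 in the promoter of Ankrd1 and at −120 to −115 in that of Ankrd23, counted from the RefSeq start, and a further Ankrd23 start listed upstream of this one held them at 37 to 42. Ankrd2 held the TATA box at −29 to −24 and no M-CAT letters. Of 32851 promoters of the same length, 14.7% held the M-CAT letters and 13.6% the TATA box on either strand, so that a match is common and is a description of the letters alone.

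Ankrd1, the cardiac ankyrin repeat protein gene that is strongly induced by pressure load, was 2.23-fold higher in ventricles of CUG960 +dox mice. It was at 1330, 989.8 and 1104 CPM in ventricles of controls V327, V333 and V334, and at 2275, 2643 and 2712 CPM in those of V119, V120 and V123. Every CUG960 +dox ventricle was above every control ventricle, with a log2 fold change of 1.16 (SE 0.12, adjusted P value 0.000689). Control atria held 3100, 1989 and 2592 CPM in the same order, and CUG960 +dox atria 2410, 3371 and 1551 CPM. These atrial ranges overlapped, with a log2 fold change of −0.07 (95% interval −0.67 to 0.53, adjusted P value 0.894). The means were 1141 ± 173 CPM in control ventricles, 2543 ± 235 CPM in CUG960 +dox ventricles and 2560 ± 556 CPM in control atria (SD, n = 3).

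Ankrd2, whose product is found mainly in skeletal muscle, was scarce in these hearts and was higher in ventricles of CUG960 +dox mice. Its counts there were 81, 145 and 156 (0.556, 1.05 and 1.25 CPM) against 43, 27 and 25 in control ventricles (0.389, 0.256 and 0.223 CPM). The groups did not overlap, and the log2 fold change was 1.71 (SE 0.36, adjusted P value 0.0189). Leaving out V333, V334, V120 or V123 moved the adjusted P value to between 0.0566 and 0.0692, so that the call was lost, with log2 fold changes of 1.47 to 1.64. In atria the counts were 48, 47 and 68 in controls and 33, 36 and 82 in CUG960 +dox mice, and the groups overlapped (log2 fold change 0.06, 95% interval −0.90 to 1.02).

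Ankrd23, the family member also known as diabetes-related ankyrin repeat protein, fell in both tissues. It was at 75.1, 98.0 and 141.9 CPM in control atria and at 23.0, 42.3 and 21.0 CPM in CUG960 +dox atria. The decrease was 3.65-fold (log2 fold change −1.87, SE 0.31, adjusted P value 0.00679), with no overlap of the groups. Without V334 the log2 fold change was −1.59 (adjusted P value 0.0126), still called. Control ventricles held 730.9, 539.5 and 605.3 CPM and CUG960 +dox ventricles 271.1, 424.0 and 338.1 CPM. That was a 1.81-fold decrease without overlap (log2 fold change −0.86, SE 0.16, adjusted P value 0.0122). With all 12 libraries in a single fit the ventricular adjusted P value was 0.0553, at the same fold change. Of the 50-base windows in Ankrd23 transcripts, 75.0% also occur in another annotated gene, chiefly Gm42417 on the same strand. Reads could have been divided between the pair. The authors' counting gave 4 to 100 counts per library to Gm42417 and 2862 to 80891 to Ankrd23. The part of such a division in the decreases was not tested.

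The Xin actin-binding repeat proteins Xirp1 (chr9:120013755-120023598) and Xirp2 (chr2:67446002-67526614) cross-link actin filaments at the intercalated disc, and their genes are targets of MEF2 factors. Both fell in CUG960 +dox atria, Xirp2 far more evenly. Xirp2 was at 466.2, 446.6 and 450.3 CPM in control atria and at 198.2, 238.7 and 249.5 CPM in CUG960 +dox atria. The 1.99-fold decrease (log2 fold change −0.99, SE 0.09, adjusted P value 0.000516) was many times the spread, and it was called without any 1 of the 6 mice, at −0.995 (adjusted P value 0.00204) without V334. Ventricles held 804.7, 628.2 and 904.3 CPM in controls and 618.2, 630.5 and 782.2 CPM in CUG960 +dox mice, which overlapped (log2 fold change −0.20, 95% interval −0.52 to 0.12).

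Xirp1 in control atria was at 448.1, 234.8 and 602.8 CPM, the last from the V334 library described above, and at 215.1, 204.3 and 203.4 CPM in CUG960 +dox atria. The CUG960 +dox atria were below every control and varied by 3.12% (coefficient of variation) against 43.1% in controls. The log2 fold change was −1.05 (SE 0.28, adjusted P value 0.0408). Without V334 it was −0.72 (adjusted P value 0.0845), and the call was also lost without V327, V119, V120 or V123, at adjusted P values of 0.0963 to 0.121. In ventricles Xirp1 was at 269.9, 212.5 and 249.5 CPM in controls and at 267.6, 291.5 and 283.9 CPM in CUG960 +dox mice, with overlap (log2 fold change 0.21, adjusted P value 0.214). The Xirp1 gene lies inside the annotated span of Cx3cr1 on the same strand, yet the 2 genes shared 0 of the 50-base windows searched, and Cx3cr1 had 303 to 655 counts per library.

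The sarcomeric actin genes Acta1 (chr8:123891769-123894751) and Actc1 (chr2:114047282-114053548) encode the main actins of adult skeletal and cardiac muscle, and Acta1 is re-expressed in ventricles under pressure load. Their RefSeq promoters are shown because the pair encode nearly identical proteins yet differed from each other in their pattern over the tissues. Capitals mark the TATA box TATAAA, the M-CAT motif CATTCC and the CArG box, the element bound by serum response factor.
Acta1 promoter, chr8:123894726-123895025, minus strand: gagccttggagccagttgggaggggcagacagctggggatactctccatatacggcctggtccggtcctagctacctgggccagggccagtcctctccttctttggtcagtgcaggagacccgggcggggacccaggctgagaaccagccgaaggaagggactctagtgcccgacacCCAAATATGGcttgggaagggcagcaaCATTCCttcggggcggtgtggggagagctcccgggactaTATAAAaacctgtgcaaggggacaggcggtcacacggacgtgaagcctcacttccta
Actc1 promoter, chr2:114052826-114053125, minus strand: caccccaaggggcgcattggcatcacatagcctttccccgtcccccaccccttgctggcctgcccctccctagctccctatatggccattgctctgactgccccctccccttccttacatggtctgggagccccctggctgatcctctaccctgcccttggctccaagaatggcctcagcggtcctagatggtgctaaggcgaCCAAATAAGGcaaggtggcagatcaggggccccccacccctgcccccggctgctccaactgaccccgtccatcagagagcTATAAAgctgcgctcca
Both promoters held a CArG box, at −73 to −64 in Acta1 and at −47 to −38 in Actc1, which 1.63% of the 32851 promoters held. The Acta1 promoter also held the M-CAT letters, at −46 to −41, which that of Actc1 did not. The TATA box letters stood at −7 to −2 in Acta1 and at 34 to 39, after the listed start, in Actc1. No CArG box was found in the windows of the other genes, and Xirp2, Rcan1, Enah and Uchl1 held none of the 3 motifs. For Xirp1 no promoter was listed.

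Acta1 was almost absent from atria and was lower in ventricles of CUG960 +dox mice without passing the threshold. Control ventricles held 801.8, 642.7 and 856.6 CPM and CUG960 +dox ventricles 195.5, 509.1 and 431.9 CPM. The groups did not overlap, and the log2 fold change was −1.02 (SE 0.29, adjusted P value 0.0543). The library of V119 was the lowest, and without that mouse the log2 fold change was −0.70 with an adjusted P value of 0.0249. Over 14 alternatives the adjusted P value ran from 0.000517 without a filter on low counts to 0.257 with all 12 libraries in a single fit, and 10 of them left the gene uncalled. Atria held 11.7, 1.67 and 5.99 CPM in controls and 1.76, 1.66 and 5.43 CPM in CUG960 +dox mice, and these overlapped (log2 fold change −1.13, adjusted P value 0.303).

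The summed skeletal muscle markers were also lower in CUG960 +dox ventricles, mostly through Mybpc2, and in CUG960 +dox atria. The summed level of 18 skeletal muscle markers was 208.6 to 228.5 CPM in control ventricles and 135.5 to 167.9 CPM in CUG960 +dox ventricles, and Casq1 was the most abundant, at 105.9 to 152.7 CPM over the 6 libraries. Of 12 tested in ventricles, 4 were called. Myh8, Pvalb and Myod1 were called higher at 23 to 47, 22 to 62 and 19 to 40 counts in CUG960 +dox ventricles against 1 to 3, 0 to 4 and 0 to 4 counts in controls, so that they passed the filter on low counts only through the group where they were high, and their calls carry no support. Mybpc2, which encodes fast myosin-binding protein C, fell from 71.7 ± 5.15 to 15.1 ± 3.04 CPM (log2 fold change −2.24, SE 0.14, adjusted P value 4.0e-05). Casq1, the calsequestrin gene of skeletal muscle, was not called (log2 fold change −0.09, adjusted P value 0.698). In atria the sum was 51.3 to 68.1 CPM in controls and 44.5 to 49.2 CPM in CUG960 +dox mice. Of 10 tested in atria, Mybpc2, Tnnt3 and Tnni2 were called lower (log2 fold changes −2.008, −2.055 and −1.339) and Myh8 higher (2.17). Tnnt3 and Tnni2 had at most 127 and 126 counts in any library. The defining fast myosin genes Myh1, Myh2 and Myh4 were near 0, with at most 15 counts in any library. Acta1 also lies within Gm20388 on the opposite strand, which had 4823 to 9822 counts per library against 252 to 1781 for Acta1 in atria, and the strand setting of the counting is not given in the sources used here.

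Actc1, the major cardiac actin, was the most abundant of the 10 genes and differed little by genotype. Ventricles held 10530, 10580 and 9560 CPM in controls and 9484, 11390 and 10180 CPM in CUG960 +dox mice. The log2 fold change of 0.02 had a 95% interval of −0.22 to 0.25. In atria CUG960 +dox mice (4312, 3900 and 4352 CPM) were below controls (4767, 4605 and 5375 CPM), but the 1.17-fold decrease did not pass the threshold (adjusted P value 0.0971). The transcripts of Acta1 and Actc1 shared no 50-base window.

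Rcan1 (chr16:92391953-92470867) encodes an inhibitor of calcineurin. It is itself switched on through calcineurin and NFAT from an internal promoter, whose transcript is read as a gauge of this pathway. The levels here are per gene and do not separate that transcript from those of the other listed start. Rcan1 was lower in both tissues of CUG960 +dox mice and was called in atria. Control atria held 65.7, 71.1 and 105.1 CPM, the last from V334, and CUG960 +dox atria 50.4, 55.0 and 47.2 CPM. The log2 fold change was −0.67 (SE 0.16, adjusted P value 0.0316). Without V334 it was −0.43, under the fold limit, at an adjusted P value of 0.0236, and without V119, V120 or V123 the adjusted P value rose to between 0.0754 and 0.106. In ventricles the values were 99.9, 91.5 and 96.8 CPM in controls and 74.6, 87.3 and 82.4 CPM in CUG960 +dox mice, which did not overlap but did not pass (log2 fold change −0.24, SE 0.08, adjusted P value 0.0957).

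Enah (chr1:181896384-182019990) encodes Mena, an Ena/VASP protein that promotes actin filament elongation and sits at the intercalated disc. It fell 1.55-fold in atria, from 194.3, 207.1 and 225.0 CPM to 129.4, 136.3 and 139.5 CPM. Each group was tight and the 2 did not overlap (log2 fold change −0.63, SE 0.07, adjusted P value 0.00142). The size was close to the fold limit, and without V334 the log2 fold change was −0.57, just under it, at an adjusted P value of 0.00496. In ventricles controls were at 196.8, 162.3 and 187.5 CPM and CUG960 +dox mice at 172.0, 176.1 and 192.9 CPM, which overlapped (log2 fold change −0.01, 95% interval −0.22 to 0.19).

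Endothelial markers were lower in the same atria. Their sum over 6 genes was 565.2 to 679.9 CPM in control atria and 434.1 to 486.7 CPM in CUG960 +dox atria, with Pecam1 the most abundant, and 2 of 6 fell (Pecam1 by 0.71 and Tek by 0.62 on the log2 scale, and by 0.75 and 0.73 without V334). Tek went under the fold limit without V327, V333 or V119 (log2 fold changes −0.57 to −0.55). In ventricles the sums were 700.3 to 852.2 and 550.9 to 601.0 CPM, while Enah overlapped there. Their part in the atrial decreases was not tested.

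Uchl1 (chr5:66676091-66687234) encodes a deubiquitinating enzyme best known from neurons that also appears in stressed cardiomyocytes. It rose 1.77-fold in CUG960 +dox ventricles, to 20.3, 31.1 and 25.1 CPM from 13.4, 15.3 and 14.4 CPM in controls. The groups did not overlap (log2 fold change 0.83, SE 0.14, adjusted P value 0.00859), and the call held without any 1 of the 6 mice. In atria CUG960 +dox mice were also above controls, at 9.65, 11.1 and 9.62 against 9.13, 6.93 and 7.27 CPM, but the log2 fold change of 0.38 did not pass (SE 0.12, adjusted P value 0.0734). The summed neuron markers were lower in both tissues of CUG960 +dox mice. Their sum over 14 genes was 13.9 to 15.8 CPM in control ventricles and 9.04 to 10.7 CPM in CUG960 +dox ventricles, with Stmn2 the most abundant (log2 fold change −0.49, adjusted P value 0.0473, under the fold limit). Of 8 tested there, Dbh, an enzyme gene of noradrenaline synthesis, was called (log2 fold change −1.49, and −1.36 with an adjusted P value of 0.0541 without V120), while Nefm, Elavl4 and Gap43 had positive values that were not called (1.39, 0.70 and 0.09). In atria the sum was 5.85 to 10.0 CPM in controls and 4.02 to 4.51 CPM in CUG960 +dox mice. Of 7 tested in atria, Dbh was called (log2 fold change −1.24, adjusted P value 0.00448). Elavl4, Gap43 and Phox2a had positive atrial values that were not called (0.64, 0.02 and 0.01). Chat and Slc18a3 were at 0 in all 12 libraries.

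**Figure D2:**
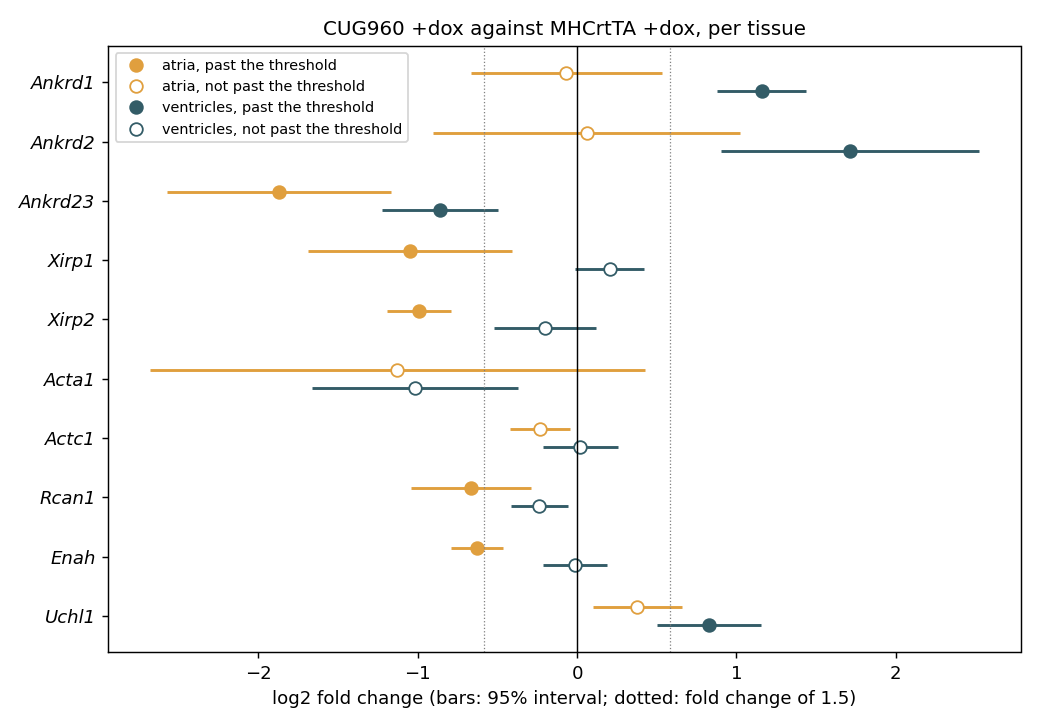
Log2 fold change of CUG960 +dox against MHCrtTA +dox for each gene in atria (orange) and ventricles (dark green), with 95% intervals of the edgeR fit, filled points for genes past the threshold and dotted lines at a fold change of 1.5. In atria 5 filled points lie left of 0 and none lies right, and in ventricles 3 lie right and 1 lies left.

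Counted together, the 5 of 10 genes called in atria and the 4 of 10 in ventricles stood beside 5.49% and 4.75% of all genes tested. The median log2 fold change of the 10 genes was −0.65 in atria, where that of all genes was −0.01, and 0.0029 in ventricles, where that of all genes was −0.0094. Groups did not overlap for 7 of 10 genes in atria, against 35.7% of all genes, and for 6 of 10 in ventricles, against 31.2%. Without V334, 2 of 10 were called in atria, Ankrd23 and Xirp2, while 770 of all genes were called in place of 969, and the median of the 10 genes was −0.50. Groups without V334 did not overlap for 7 of 10 genes in atria, against 42.2% of all genes.

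Whether a genotype difference itself differed between tissues was tested in a single fit over all 12 libraries, at an adjusted P value under 0.05, where 1.38% of all genes passed. Enah was the gene that passed among the 10, with a difference of 0.61 between its ventricular and atrial log2 fold changes (SE 0.12, 95% interval 0.36 to 0.86, adjusted P value 0.0254). This call was lost without V333, V334, V119, V120 or V123, at adjusted P values of 0.0814 to 0.104. The estimate was positive for all 10 genes, with a median of 0.70 against 0.0024 for all genes, and it was 1.22 for Ankrd1 (adjusted P value 0.112), 1.25 for Xirp1 (0.104) and 0.79 for Xirp2 (0.0654). With the mouse as a replicate block, since both tissues came from the same animals, these 3 also passed, with differences of 1.27, 1.15 and 0.80 at adjusted P values of 0.0394, 0.0410 and 0.0271. Without V334 the difference for Xirp1 was 0.94 (adjusted P value 0.211), and without V333 it was 1.47 (adjusted P value 0.00484). With the block and without V334, an alternative added after seeing the data, Xirp1 (0.88, adjusted P value 0.0360) and Xirp2 (0.93, 0.0134) passed, and Ankrd1 (1.24, 0.0644) and Enah (0.59, 0.0670) did not. The median over the 10 genes without V334 was 0.65, and all 10 estimates stayed positive in the fit without the block. The remaining 6 genes did not pass, and Acta1 had an interval of −1.64 to 1.87, which leaves a large difference in either direction possible.

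Ventricles and atria differed more than the genotypes did, as they did across the transcriptome, where 34.9% of genes were called between tissues in controls (16.6% higher and 18.3% lower in ventricles) and 33.6% in CUG960 +dox mice (16.4% higher and 17.2% lower). Of the 10 genes, 7 were called in controls, 5 higher in ventricles and 2 lower, and 7 in CUG960 +dox mice, all higher in ventricles. Acta1 showed the widest gap, 119.9-fold in controls (log2 fold change 6.91, SE 0.66, adjusted P value 4.9e-05) and 130.3-fold in CUG960 +dox mice (7.03, SE 0.58, adjusted P value 1.1e-05). Its low and uneven atrial level makes the size imprecise, with log2 fold changes of 6.56 (without V333) to 7.62 (without V327) in controls and 6.45 (without V120) to 7.70 (without V123) in CUG960 +dox mice, all called. Ankrd23 was 5.97-fold and 12.1-fold higher in ventricles, Xirp2 1.72-fold and 2.99-fold, Actc1 2.09-fold and 2.49-fold, and Uchl1 1.85-fold and 2.54-fold, each called in both genotypes. Tissues did not overlap for 6 of 10 genes in controls, where 64.6% of all genes did not, and for 8 of 10 in CUG960 +dox mice, where 62.6% did not.

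**Figure D3:**
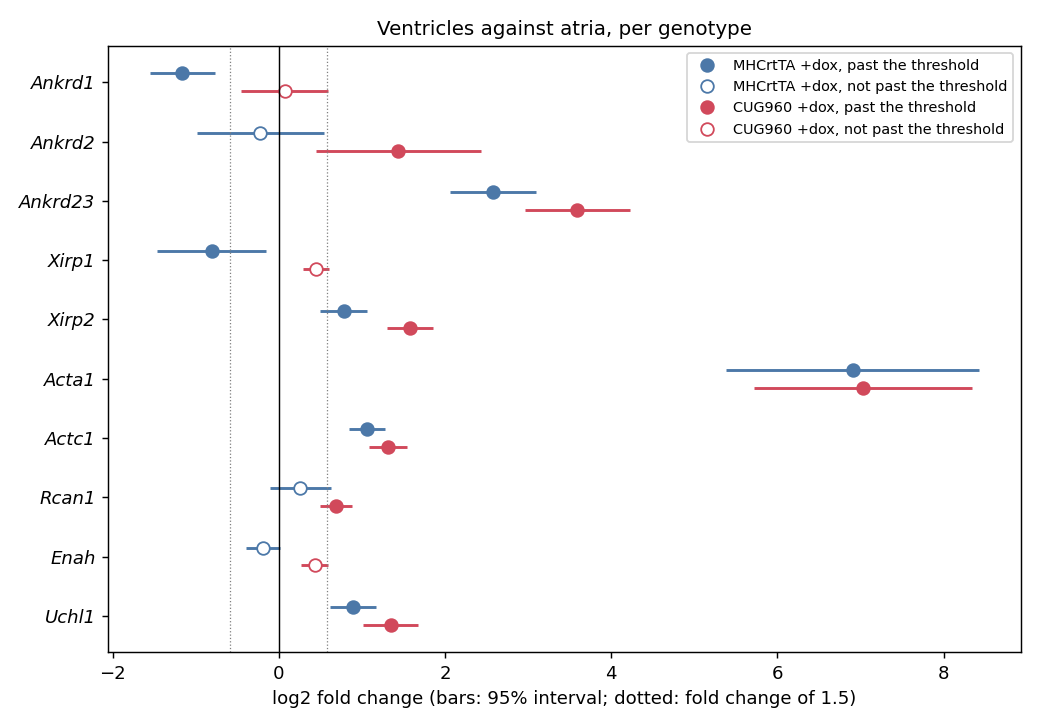
Log2 fold change of ventricles against atria for each gene in MHCrtTA +dox (blue) and CUG960 +dox mice (red), with 95% intervals of the edgeR fit, filled points for genes past the threshold and dotted lines at a fold change of 1.5. Acta1 lies near 7 in both genotypes, and the red point lies right of the blue point for each gene.

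Ankrd1 differed between tissues in controls and not past the threshold in CUG960 +dox mice, but the interaction given above did not pass (adjusted P value 0.112, and 0.0394 with the replicate block). In control hearts it was 2.24-fold lower in ventricles than in atria (log2 fold change −1.16, SE 0.17, adjusted P value 0.000565), and in CUG960 +dox hearts the tissues overlapped (0.07, SE 0.23, adjusted P value 0.813). Ankrd2 was 2.71-fold higher in ventricles of CUG960 +dox mice (adjusted P value 0.0209, and 0.160 without V120) and overlapped in controls (log2 fold change −0.22). Rcan1 was called higher in ventricles of CUG960 +dox mice (log2 fold change 0.69, SE 0.08, adjusted P value 0.000125) and was not called in controls (0.26, SE 0.16, adjusted P value 0.206). Xirp1 was called lower in ventricles of controls (log2 fold change −0.81, adjusted P value 0.0408) although the tissues overlapped, and the call was lost without V334 (adjusted P value 0.159) or V327 (0.150). In CUG960 +dox mice Xirp1 and Enah were higher in ventricles at adjusted P values of 0.000478 and 0.000825, with fold changes of 1.37 and 1.35, under the fold limit. The genotype and tissue comparisons share libraries, so these values restate the same levels from another side.

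Divided by exonic length, the levels of the genes in control ventricles ran over more than 4 orders of magnitude. Actc1 was first at 6316 ± 355 CPM per kb (SD, n = 3), followed by Acta1 at 499.3 ± 72.3, Ankrd1 at 395.4 ± 59.9, Ankrd23 at 231.9 ± 36.1, Xirp2 at 65.0 ± 11.7, Xirp1 at 41.8 ± 4.99, Rcan1 at 31.1 ± 1.37, Uchl1 at 8.81 ± 0.57, Enah at 8.49 ± 0.83 and Ankrd2 at 0.254 ± 0.077 CPM per kb. Of the neighbors in this order, Uchl1 and Enah lay within their SDs of each other, and the means of Acta1 and Ankrd1 differed by more than either SD while the mean ± SD ranges overlapped. In control atria Actc1 again led, at 3038 ± 251 CPM per kb, with Ankrd1 next at 887.0 ± 193 and Acta1 ninth of the 10 at 4.19 ± 3.26 CPM per kb. The length was the union of annotated exons, which for the 16 transcripts of Enah is 21452 bases and understates its level.

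Genes whose log2 CPM followed each of the 10 most closely over the 12 libraries were found by Pearson correlation among up to 13112 genes, as a description, since the libraries fall in 4 groups that share tissue and genotype. Acta1 was closest to Rcan2, a calcineurin regulator related to Rcan1 (r = 0.994), Ankrd23 to Kifc3 (0.988) and Vegfa (0.988), Actc1 to Mrpl37 (0.990), Xirp2 to Pde4dip (0.981) and Uchl1 to Aven (0.984). Enah was closest to Vcl (r = 0.954), the gene of vinculin, an actin-binding protein of the intercalated disc, and Vcl fell by 0.58 on the log2 scale in CUG960 +dox atria, just under the fold limit (SE 0.08, adjusted P value 0.00259), and by 0.55 without V334. Xirp1 was closest to Cyr61 (r = 0.903) and Fhl1 (0.869), and both Xirp1 and Cyr61 were highest in the V334 atria. The closest for Rcan1 was Pltp (r = 0.947), for Ankrd1 Txndc12 (0.903) and for Ankrd2 Ipo4 (0.897).

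Lists of related genes are set beside the 5.49% of all genes called in atria and 4.75% in ventricles. Of 18 titin and Z-disc partners, 1 rose and 2 fell in atria and 0 rose and 2 fell in ventricles, which is 16.7% and 11.1%, with median log2 fold changes of −0.26 and −0.05. Capn3, a muscle protease that binds titin in the same region as the ankyrin repeat proteins, fell in both tissues, from 5.62 ± 0.50 to 3.08 ± 0.26 CPM in atria (log2 fold change −0.86, SE 0.12, adjusted P value 0.00288) and from 5.67 ± 0.42 to 0.978 ± 0.19 CPM in ventricles (−2.53, SE 0.17, adjusted P value 5.6e-05). Its decrease was larger in ventricles, with a difference of −1.67 between tissues (SE 0.20, adjusted P value 0.00186). Fhl2, a LIM protein of the titin spring, rose in atria from 71.1 ± 3.10 to 151.2 ± 8.73 CPM (log2 fold change 1.09, SE 0.07, adjusted P value 7.6e-05), while its relative Fhl1 fell there by 0.89 on the log2 scale (SE 0.17, adjusted P value 0.0127). Capn3, Fhl2 and Fhl1 kept their atrial calls without V334 (log2 fold changes −0.90, 1.11 and −0.76), and Fhl1 lost its call without V119 (adjusted P value 0.0588). Myot, encoding the Z-disc protein myotilin, fell in ventricles by 0.80 on the log2 scale (SE 0.13, adjusted P value 0.00683).

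Of 15 genes of the hypertrophy and fetal program, 3 rose and 0 fell in ventricles, where the list had a median log2 fold change of 0.26, and 0 rose and 1 fell in atria, with a median of −0.10, which is 20% and 6.67% called. Nppa, which encodes atrial natriuretic peptide, rose in ventricles from 62.6 ± 19.5 to 154.1 ± 68.9 CPM (log2 fold change 1.301, SE 0.31, adjusted P value 0.0314). Tnni1, the slow skeletal troponin I of the fetal heart, rose from 0.240 ± 0.090 to 0.743 ± 0.14 CPM (log2 fold change 1.63, SE 0.33, adjusted P value 0.0166), and Gdf15, a stress-induced cytokine gene, from 1.299 ± 0.49 to 3.33 ± 1.23 CPM (log2 fold change 1.36, SE 0.32, adjusted P value 0.0299). Summed atrial markers, which include Nppa, were 276.9 and 353.0 CPM in ventricles of V120 and V123 and 119.6 to 192.9 CPM in the other 4 ventricles. Nppa itself was at 86.6, 224.4 and 151.5 CPM in V119, V120 and V123 and at 48.6, 54.4 and 84.8 CPM in controls, and its call was lost without V327, V333, V120 or V123, at adjusted P values of 0.0632 to 0.105 and log2 fold changes of 0.93 to 1.31. Of the other atrial markers, Bmp10 held 5 to 38 counts in CUG960 +dox ventricles (0.0343 to 0.275 CPM) against 252 to 420 counts in controls. It owed its place past the filter on low counts to the controls, so its call carries no support. Myl4, Myl7 and Sln overlapped and were not called, with the high V123 library given above. The part of atrial RNA in the Nppa difference was not tested. Tnni1 lost its call without V327, V119 or V123 (adjusted P values 0.0504 to 0.0560), and Gdf15 without V333, V334 or V120 (0.0622 to 0.105). Nppb and Myh7, also on the list, were not called in either tissue, with ventricular log2 fold changes of −0.11 (SE 0.32) and 0.26 (SE 0.12). Edn1, the endothelin-1 gene, fell in atria (log2 fold change −0.73, SE 0.15, adjusted P value 0.0160), and the call was lost without V334 (−0.67, adjusted P value 0.0524).

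Calcineurin and NFAT signalling genes, 20 of 21 of which were tested, had 0 calls in atria, and in ventricles 1 rose and 1 fell. Nfatc2, an NFAT transcription factor gene, rose in ventricles from 11.8 ± 1.19 to 20.6 ± 3.90 CPM (log2 fold change 0.80, SE 0.14, adjusted P value 0.00972). Of the mechanosensitive transcription regulators, which include SRF, YAP and TEAD genes, 0 of 21 tested were called in atria and 1 of 22 in ventricles, where Myocd, the SRF coactivator myocardin, rose (log2 fold change 0.61, SE 0.14, adjusted P value 0.0276), a call that was lost when any mouse other than V334 was left out (adjusted P values 0.0516 to 0.101). None of 18 actins and Ena/VASP partners was called in either tissue by edgeR with the fold limit, with medians of −0.16 and −0.12. Of 12 ubiquitin hydrolases and muscle ubiquitin ligases, Uchl5, a relative of Uchl1 that acts on the proteasome, rose in atria (log2 fold change 0.68, SE 0.08, adjusted P value 0.00134, and 0.66 without V334) and in ventricles (0.79, SE 0.09, adjusted P value 0.00136), and no other passed the threshold.

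**Figure D4:**
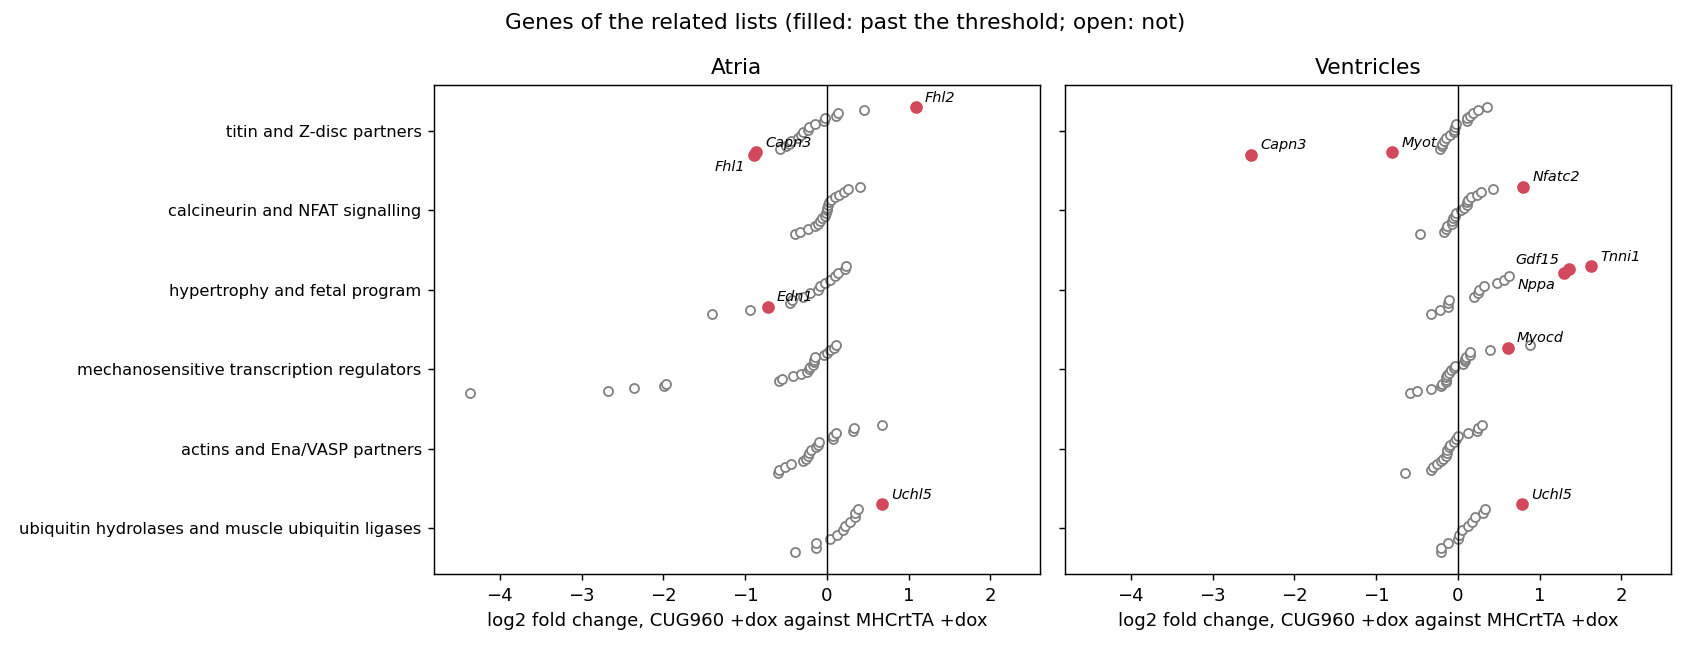
Log2 fold change of CUG960 +dox against MHCrtTA +dox for each tested gene of the 6 related lists in atria (left) and ventricles (right), with 1 point per gene, spread vertically by rank within its list, filled and named where past the threshold, without 1 gene that is not reported here. Most points are open and near 0, and the 5 open points at −1.96 or lower in the mechanosensitive list in atria are Fos, Cyr61, Egr1, Jun and Atf3, each highest in the control atria of V334.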

How the data were processed

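RNA of atria and ventricles was measured by poly(A)-selected, stranded, paired-end RNA-Seq. The authors aligned reads to GRCm38 (mm10) and estimated expected counts per gene with RSEM 1.3.1, and the deposited table holds these expected counts as whole numbers, without scaling or filter. RSEM divides reads that match several genes.

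Each comparison was fitted with edgeR 4.0.16 (R 4.3.3) by the quasi-likelihood test with filterByExpr, TMM and Benjamini-Hochberg adjustment over all genes tested, on its own 6 libraries (12 for the interaction). The study states its limit both as a fold change of 1.5 and as a log2 fold change of 1.5, and the former was used. Replicates are separate mice. Libraries held 116127966 to 160676189 counts and varied well beyond counting error, so the number of mice (3) sets the precision.

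Atria and ventricles came from the same animals, which pairs them. After group means were removed, libraries of the same mouse correlated at r = 0.030 to 0.135 and those of different mice at −0.150 to 0.124. The mouse was a block in an alternative fit.

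The 10 genes and all lists were chosen with earlier results of these data known. The text names all 10 genes, the genes of each related list past the threshold in a tissue (at most 4 per list, 1 of which is not reported here), the closest genes by Pearson correlation of log2 CPM (prior count 2, mean of at least 1 CPM), and each marker list's most abundant gene. Fos, Jun, Egr1, Atf3, Cyr61, Vcl, Nppb, Myh7, Myl4, Myl7, Sln, Casq1, Nefm, Elavl4, Gap43, Phox2a and the marker genes called between genotypes were named after their values were seen. So were the other cardiomyocyte and atrial markers given singly. Marker lists of Schwann cells, smooth muscle and fibroblasts were also computed. Over all 12 libraries their sums were 5.58 to 42.0, 264.2 to 517.6 and 1203 to 2345 CPM, with Mbp, Acta2 and Dcn the most abundant in that order. Schwann cell sums were lower in CUG960 +dox mice in atria (26.0 to 29.9 against 35.6 to 42.0 CPM) and ventricles (5.58 to 9.49 against 11.7 to 12.2 CPM). Smooth muscle and fibroblast sums overlapped between genotypes in each tissue. Of 7 smooth muscle markers, 1 was called higher in atria and 3 lower in ventricles. Coordinates and exons are from GENCODE M21, and promoters from RefSeq (GRCm38.p6), with 1 or more entries for 9 of the 10 genes. The steps were tested on simulated data. Alternatives were DESeq2 1.42.0, RLE and upper quartile normalization, other filters, a log2 fold limit of 1.5, no limit on fold, a single fit, the block, and leaving out each mouse. Leaving out each mouse for genes of the lists, and V334 together with the block, was added after seeing the data. Figures were drawn with matplotlib 3.10.9.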

Additional observations from a re-analysis of the deposited data

Results flagged for a closer look

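The effect of genotype on Enah differed between tissues by the interaction test, with a log2 difference of 0.61 (adjusted P value 0.0254, edgeR over 12 libraries). The 3 CUG960 +dox atria were all below the 3 control atria, while the ventricles of the genotypes overlapped. The interaction was no longer called without V333, V334, V119, V120 or V123 (adjusted P values 0.0814 to 0.104), and without V334 the atrial log2 fold change was −0.57, under the fold limit.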

How the results depend on the processing

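Over the 10 genes and 5 comparisons, 579 of the alternative values kept their direction and side of the threshold, 40 lost a call, 16 gained a call and 15 changed sign. At a log2 fold change of at least 1.5, the genes called numbered 1 in atria, 1 in ventricles, 2 between tissues in controls and 3 in CUG960 +dox mice, and all genes called numbered 216, 199, 2233 and 2200. Without a fold limit, all genes called numbered 2573, 1680, 9726 and 9517 in the same order. For the interaction, 4 of the 10 genes were called by DESeq2, without a filter on low counts, and with the mouse as a replicate block, where 3.6%, 1.15% and 1.82% of all genes were called in place of 1.38% (660 by DESeq2 in place of 253). The block changed no other call among the 10 genes. Leaving out 1 mouse gave 2 to 5 genes called in atria (679 to 897 of all genes), 3 to 5 in ventricles (558 to 737), 6 to 7 between tissues in controls (5239 to 5995), 6 to 7 in CUG960 +dox mice (5292 to 5658) and 0 to 1 for the interaction (74 to 131). Sign changes were limited to values that were not called. Over the sets without 1 mouse, the atrial log2 fold change lay between −0.37 and 0.17 for Ankrd1 and between −0.56 and 0.30 for Ankrd2, and the ventricular one between −0.089 and 0.048 for Enah and between −0.054 and 0.080 for Actc1. The tissue difference lay between −0.54 and 0.15 for Ankrd2 in controls and between −0.23 and 0.33 for Ankrd1 in CUG960 +dox mice, and the interaction of Acta1 between −0.61 and 0.79. With the replicate block the interaction of Acta1 was −0.14, and −0.16 with the block and without V334. The cause was not tested. At 25 to 156 counts per library, Ankrd2 had the lowest counts of the 10 genes, so counting error adds most to its spread between mice.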
